A study of Mus musculus with 8 samples.

Results

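The 10 genes described here belong to the immediate-early and stress response: Atf3, Fos, Fosb, Jun, Junb, Jund, Egr1, Ier2, Btg2 and Zfp36. They were taken by symbol from the 27998 genes of the files, a rule that uses no measured value, although the list was drawn up with earlier results of these data known, and were followed in single-cell RNA of mouse bone marrow after interferon α (IFNα). Atf3, the Fos and Jun proteins and Egr1 are DNA-binding transcription factors, whereas Btg2, Zfp36 and Ier2 are not classical DNA-binding factors and share only the early response with them.

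Lineage-negative cKit+ cells (LK cells) from the bone marrow of wild-type C57Bl/6 mice aged 12 to 14 weeks were sorted, with additional LK CD150+ CD48- CD34- hematopoietic stem cells (HSCs), and sequenced with a droplet method that counts unique molecules (UMIs). Control mice received 100 µl PBS and treated mice 50000 IU recombinant mouse IFNα per 20 g body weight under the skin, and were analysed 3, 24 or 72 h later, with 4 mice per group and 16 mice in all. The 4 mice of a group were stained with 4 hashtag antibodies, 1 per mouse, and pooled into 1 library, so a time point and its library cannot be told apart, whereas the mice of 1 library shared every step after pooling. The added HSCs set the share of stem cells in the samples.

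Immediate-early genes are switched on within minutes of a signal, without new protein synthesis. MAP kinase signaling leads to the phosphorylation of factors such as SRF partners and CREB that already sit on their promoters. The resulting Fos and Jun proteins pair as AP-1. The same genes respond to growth factors, inflammation and the handling of tissue, including enzyme treatment, cold and sorting. Atf3 belongs to the ATF/CREB family and responds to stress and innate immune signals, including type I interferon. Egr1 is a zinc finger factor that also acts in the quiescence of HSCs, Btg2 restrains proliferation, Zfp36 (tristetraprolin) speeds the decay of messenger RNAs with AU-rich elements, and the function of Ier2 is less well known.

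The libraries held 2454 to 4346 barcodes, of which 1661 to 3462 cells per time point were kept, with 58 to 1240 cells and 1102706 to 26446327 UMIs per mouse. Control mouse 4 (hashtag 4) had the 58 cells. It entered no tested sum of HSC-like, erythroid or megakaryocyte (MK) progenitor-like cells, where it had 8, 5 and 8 cells. These cells did enter the values with class shares held at those of control. In LMPP-like and myeloid progenitor-like cells it counts as 1 of 4 controls, with 12 and 16 cells. The 3 h library had the lowest median depth (12017 UMIs per kept cell, against 14763 to 18964.5 in the others) and the highest share of barcodes without a hashtag (17.2%, against 4.37 to 5.45%). Median mitochondrial content was 1.59 to 1.74% in the 4 libraries, and no pair of libraries shared more than 1 kept barcode. Classes were named HSC-like, lymphoid-primed (LMPP-like), myeloid, erythroid and MK progenitor-like from marker genes, after clustering on genes that excluded all 10 members.

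Promoter windows of the 250 bases before the RefSeq start site (GRCm38.p6) were available for 8 of the 10 genes. The windows of Atf3, Fos, Fosb and Btg2 are shown because these genes separated most clearly in the values below: Atf3 rose at 3 h, Btg2 fell at 3 h, and Fos and Fosb differed most between mice of 1 library. Capitals mark the letters TGACG, on either strand, the core of the cAMP response element (CRE) that ATF and CREB factors bind, and the full CRE, which contains 2 overlapping cores. The lines give, 5′ to 3′, the strand of the gene, for Atf3 chr1:191183334-191183583 (minus strand, inside the span 191170296 to 191218039 of the longest gene model), Fos chr12:85473640-85473889 (plus), Fosb chr7:19310046-19310295 (minus) and Btg2 chr1:134079156-134079405 (minus).
Atf3: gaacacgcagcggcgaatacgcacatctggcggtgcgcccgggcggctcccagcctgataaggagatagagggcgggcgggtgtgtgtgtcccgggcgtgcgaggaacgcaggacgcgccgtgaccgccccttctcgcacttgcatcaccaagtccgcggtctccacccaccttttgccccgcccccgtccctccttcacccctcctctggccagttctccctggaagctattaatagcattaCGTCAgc
Fos: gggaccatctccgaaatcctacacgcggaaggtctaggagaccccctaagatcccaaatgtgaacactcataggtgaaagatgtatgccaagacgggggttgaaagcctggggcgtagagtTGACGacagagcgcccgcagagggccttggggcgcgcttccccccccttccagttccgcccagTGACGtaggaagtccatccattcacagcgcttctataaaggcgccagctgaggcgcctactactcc
Fosb: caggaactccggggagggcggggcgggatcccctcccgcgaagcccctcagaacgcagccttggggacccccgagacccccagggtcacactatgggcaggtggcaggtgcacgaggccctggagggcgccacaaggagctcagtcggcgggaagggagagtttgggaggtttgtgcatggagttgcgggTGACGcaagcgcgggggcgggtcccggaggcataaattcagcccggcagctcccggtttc
Btg2: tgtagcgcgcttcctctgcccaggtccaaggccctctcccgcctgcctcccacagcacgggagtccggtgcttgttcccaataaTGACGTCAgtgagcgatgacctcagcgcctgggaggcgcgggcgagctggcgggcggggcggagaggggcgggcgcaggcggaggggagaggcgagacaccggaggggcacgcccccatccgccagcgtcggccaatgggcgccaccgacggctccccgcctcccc

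The core began 7 bases before the start in Atf3, 129 and 66 bases before it in Fos, 60 in Fosb, 106 in Junb, and 166 and 163 in Btg2, where it formed the full CRE TGACGTCA. A core was present in 17.8% of 32851 such windows, and a full CRE in 1.55%. A CArG box, the site of SRF, matched only in Zfp36, 58 bases before the start, against 1.47% of all windows. The AP-1 site TGANTCA (6.75% of windows) and an interferon-stimulated response element (2.98%) had no match in the 8 windows, and the windows of Jun and Jund held none of the 5 motifs. The Jund window (chr8:70697489-70697738, plus strand) ended upstream of the gene model used here (70698949 to 70700616). The Zfp36 window (chr7:28379229-28379478, minus strand) lay inside its gene model (28376784 to 28380253). These matches describe letters in the window only.

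Atf3, the stress- and interferon-responsive ATF factor, was nearly absent from control cells and rose at 3 h. It gave 6 UMIs in 55267077 in the control library, 41 in 23823015 at 3 h, 14 in 75766639 at 24 h, and 5 in 43046628 in the 72 h library. These are rates 15.9-fold (95% exact interval 6.69 to 45.7), 1.70-fold (0.614 to 5.40) and 1.07-fold (0.258 to 4.21) that of control at 3, 24 and 72 h, with intervals that cover counting error only. Only the 3 h interval excluded equality.

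By mouse, Atf3 stood at 0.104, 0.114, 0.106 and 0 CPM (counts scaled to 1000000 UMIs per mouse) in control mice of hashtags 1 to 4, and at 1.31, 3.27, 1.39 and 1.78 CPM at 3 h. All 4 mice at 3 h were above all 4 controls. The 0 of control mouse 4 comes from 1102706 UMIs, which allow up to 3 counts when 0 are seen. Its place below the 3 h mice is therefore not resolved, and the permutation test below takes it as a measured 0. Without that mouse, the log2 fold change at 3 h was 4.01 in edgeR's quasi-likelihood test (adjusted p = 1.32e-06). The values were 0.220, 0.221, 0.0672 and 0.185 CPM at 24 h and 0.147, 0, 0.0893 and 0.194 CPM at 72 h, in the range of 0 to 0.221 CPM that overlapped control. Of these mice, 3 of 4 at 24 h and 2 of 4 at 72 h were above all controls. The edgeR quasi-likelihood test gave a log2 fold change of 4.03 (SE 0.489, 16.3-fold, adjusted p = 6.58e-07) at 3 h, and a two-sided exact permutation test of the CPM gave p = 0.0286, the smallest that 4 against 4 mice allow, with p = 0.114 at 24 h and 0.629 at 72 h.

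A UMI of Atf3 was found in 0.242% of control cells (exact 95% interval 0.0890 to 0.527%), in 1.81% at 3 h (1.22 to 2.57%), in 0.404% at 24 h and in 0.204% at 72 h. These intervals pool the cells of 4 mice and leave out the spread between mice. By mouse of hashtags 1 to 4, the shares were 0.242, 0.262, 0.242 and 0% in control. At 3 h they were 1.82, 2.46, 1.14 and 2.27%. Reduced to 5000 UMIs per cell, the shares over all cells of control, 3, 24 and 72 h were 0.0410, 0.875, 0.117 and 0.0840%, so 3 h also stood highest at equal depth. The 30 cells at 3 h held up to 6 UMIs each, whereas no cell of the other libraries held more than 1. At this depth a cell without a UMI is not shown to lack the transcript, and the part of free RNA was not estimated.

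Atf3 was counted in LMPP-like cells (17 UMIs), myeloid progenitor-like cells (10), HSC-like cells (6), cells outside the named classes (6), and erythroid and MK progenitor-like cells (1 each) at 3 h. In LMPP-like cells the 4 mice at 3 h ranged from 0.935 to 7.81 CPM, and in control from 0 to 0.315 CPM. In HSC-like cells the range at 3 h was 0 to 5.62 CPM. Within classes Atf3 fell below the count filter, so the main test covered it in no class and its lineage order was not resolved at this depth. A setting without the filter did test Atf3 by class, and those values are not given here. The 30 cells with Atf3 at 3 h had a Fos UMI in 40% of cases against 29.1% of the other cells, Jun in 66.7 against 70.4% and Egr1 in 20.0 against 19.2%, while their median depth was 15340 against 11980 UMIs.

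A reference list of 20 interferon-stimulated genes gives the scale. All 20 rose at 3 h with a median log2 fold change of 4.78, led by Ifit3 (7.58), Ifit1 (6.88) and Cxcl10 (6.87). All 20 were still higher at 24 h with a median of 1.89 (all genes 14.5% higher). At 72 h 1 was higher and 3 lower (all genes 18.9 and 18.5%). By class at 72 h, 10 of 20 were lower in LMPP-like cells (median -0.61, all genes 2.35% lower). In HSC-like cells 5 were lower (median -0.50, all genes 1.04%). In MK progenitor-like cells 2 were lower (all genes 1.24%), and 0 in myeloid and erythroid progenitor-like cells. At 3 h the list rose in 20 of 20 genes in each of the 5 classes. The value of Atf3 at 3 h (4.03) was below the median of the list. At 24 h Atf3 did not pass in edgeR's quasi-likelihood test (log2 fold change 0.72, SE 0.632, adjusted p = 0.421). Its 24 h level rests on 14 UMIs, so a difference from the list was not resolved.

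**Figure D1:**
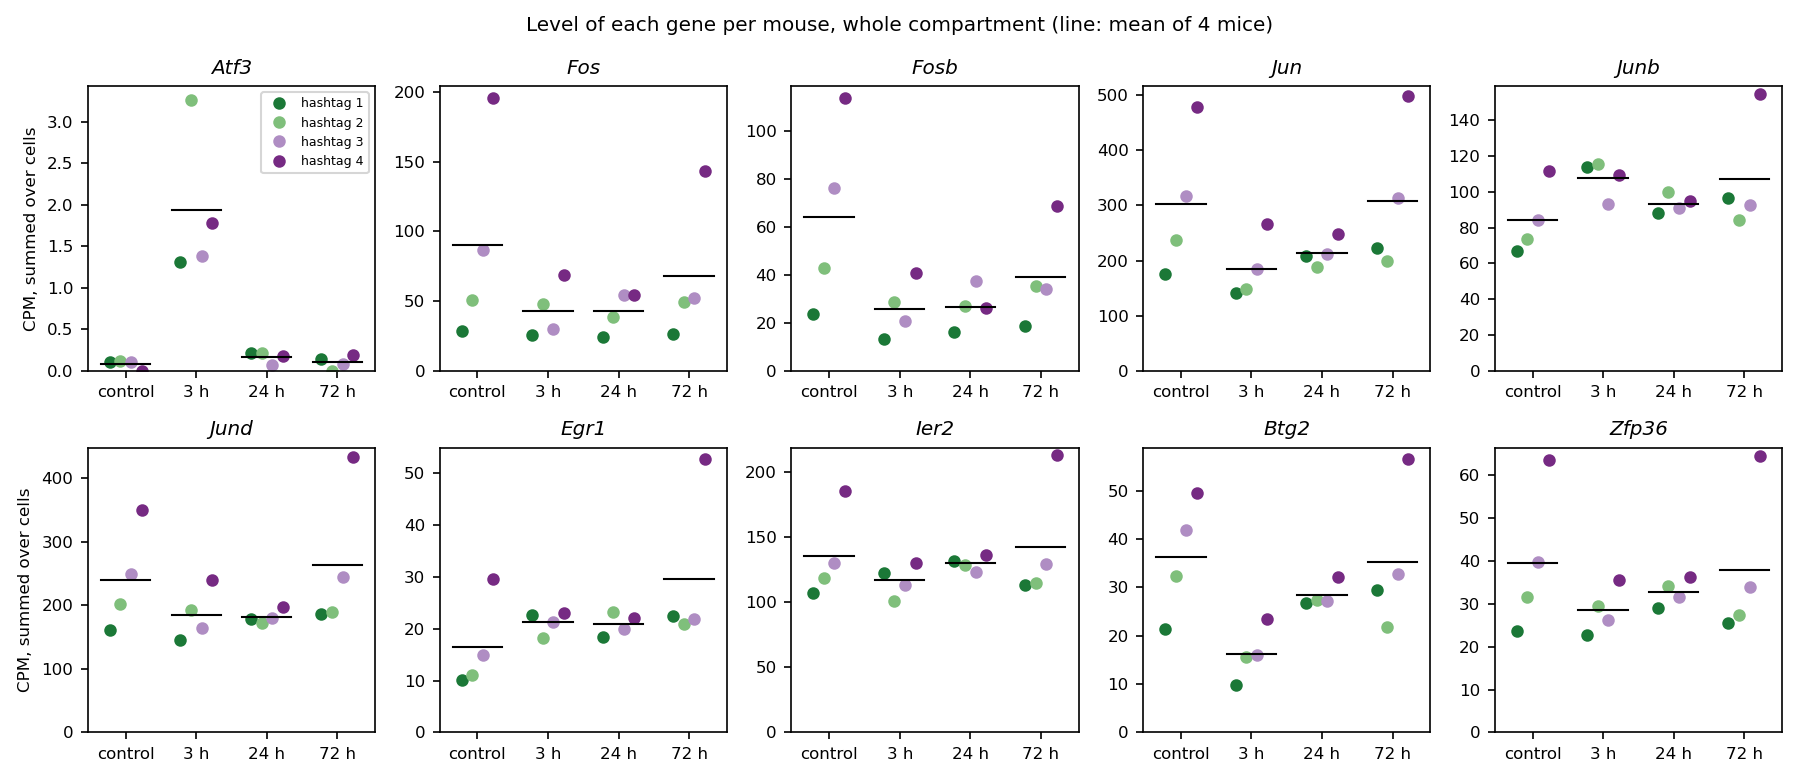
Level of the 10 genes in CPM, summed over all kept cells of a mouse (y axis), by time point (x axis), with 1 point per mouse coloured by its hashtag number and a line at the mean of 4 mice. Atf3 is high in all 4 mice at 3 h (1.31 to 3.27 CPM), whereas for Fos the hashtag 4 mice of control and 72 h stand at 196 and 143 CPM, above all other mice.

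Over the whole compartment, 12042 genes were tested, and all 10 members passed the count filter. The threshold was an adjusted p (Benjamini-Hochberg) under 0.05 in edgeR's quasi-likelihood test. At 3 h, Atf3, Junb and Egr1 rose and Btg2 fell, 3 of 10 higher and 1 lower, against 19.7% of all genes higher and 19.2% lower. At 24 h Egr1 rose and Fosb fell (14.5% of all genes higher and 13.8% lower), and at 72 h Egr1 and Junb rose (18.9 and 18.5%). With an additional limit of 1 on the absolute log2 fold change, Atf3 and Btg2 remained at 3 h (background 5.22% higher and 1.68% lower), none at 24 h (1.46 and 0.756%) and Egr1 at 72 h (1.7 and 1.16%). The median log2 fold change of the 10 genes was -0.25 at 3 h, -0.11 at 24 h and 0.17 at 72 h, against -0.03, 0.00 and 0.02 over all genes.

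Fos, the founding AP-1 subunit, had 28.9, 50.5, 86.9 and 196 CPM in control mice of hashtags 1 to 4, and 26.0, 47.7, 30.2 and 68.5 CPM at 3 h. It had 24.7, 38.8, 54.3 and 54.2 CPM at 24 h and 26.6, 49.1, 52.2 and 143 CPM at 72 h. The groups overlapped at each time point, and the spread of control (SD 74.1 CPM around a mean of 90.5) was wider than the mean of any treated group (43.1, 43.0 and 67.8 CPM). The log2 fold changes were -0.63 (adjusted p = 0.336), -0.61 (0.318) and 0.03 (0.973), and none passed in this fit, which has no term for the hashtag number. The fit gives more weight to mice with more UMIs. Without control mouse 4, which had 58 cells and the highest Fos level, the first 2 values were -0.39 and -0.36. With the hashtag number as a block in the same quasi-likelihood test, both passed. They were then -0.85 (adjusted p = 0.00884) at 3 h and -0.76 (0.00998) at 24 h. The 72 h value changed sign with the setting, and was -0.41 in DESeq2.

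Fosb, a Fos relative with a shorter splice form, had 23.9, 43.1, 76.5 and 114 CPM in control and 13.3, 29.0, 20.9 and 40.99 CPM at 3 h. Values were 16.3, 27.1, 37.7 and 26.1 CPM at 24 h and 18.8, 35.4, 34.2 and 68.7 CPM at 72 h. The groups overlapped at all times. The 24 h difference passed (log2 fold change -0.96, SE 0.352, adjusted p = 0.0460), the 3 h difference did not (-1.02, adjusted p = 0.0606), and both p-values were near the threshold. The 24 h call was lost without control mouse 3 (-0.58, adjusted p = 0.310), control mouse 4 (-0.83, 0.0747), 24 h mouse 1, 2 or 4 (0.113, 0.0916 and 0.0808) or 72 h mouse 2 or 3 (0.0526 and 0.0505), and it also missed the threshold in DESeq2 (0.0579), with class shares held at those of control (0.0651) and with equal weight of cells (0.0806). The 3 h difference passed in 7 alternatives without a hashtag term, among them DESeq2 (-1.29, adjusted p = 0.0360), with adjusted p from 0.00348 to 0.0410. With the hashtag number as a block in the quasi-likelihood test, Fosb passed at 3 h (-1.18, adjusted p = 0.000507) and 24 h (-1.06, 0.000443).

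Jun, the main AP-1 partner of Fos, was the most abundant member together with Jund. Jun had 176, 237, 316 and 479 CPM in control, 141, 149, 185 and 267 CPM at 3 h, 208, 189, 212 and 248 CPM at 24 h, and 222, 200, 314 and 499 CPM at 72 h. At 3 h 2 mice were below the lowest control, the other two lay inside the control range, and the difference did not pass (log2 fold change -0.57, adjusted p = 0.0970). It passed in 5 alternatives without a hashtag term, among them the likelihood ratio test (-0.69, adjusted p = 0.0245), but not in DESeq2. With the hashtag number as a block in the quasi-likelihood test, Jun passed at 3 h (-0.64, adjusted p = 0.000547). Jund, which is expressed more constantly than other AP-1 genes, ranged from 161 to 350 CPM in control mice. At 3 h it ranged from 145 to 239, at 24 h from 173 to 197 and at 72 h from 186 to 434 CPM. No change of Jund passed in edgeR's quasi-likelihood test without a hashtag term. Its 3 h difference did pass in limma with class shares held at those of control.

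Junb, the Jun family member that acts as a brake on proliferation in the myeloid lineage, had 67.0, 73.5, 84.2 and 111 CPM in control and 114, 116, 93.1 and 109 CPM at 3 h. The 2 highest mice at 3 h were above all controls and the other two were inside the control range. Junb rose at 3 h (log2 fold change 0.46, SE 0.148, adjusted p = 0.0161) and at 72 h (0.46, SE 0.140, adjusted p = 0.0133), where the mice had 96.5, 84.0, 92.5 and 155 CPM. The 3 h call was lost without control mouse 1 (adjusted p = 0.0738) or control mouse 2 (0.0518), and the 72 h call without control mouse 1 (0.0704) or 72 h mouse 4 (0.0656). With class shares held at those of control, the values of Junb were -0.0025 at 3 h and 0.06 at 72 h and neither passed. That setting also changed the test to limma, as did equal weight of cells (0.17 at 3 h and 0.22 at 72 h). The 3 h call was also lost in DESeq2 (0.0960), with library size alone (0.0774) and with equal weight of cells (0.407), and the 72 h call in DESeq2 (0.121) and with equal weight of cells (0.376).

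Egr1, the zinc finger factor, had 10.1, 11.01, 14.99 and 29.6 CPM in control. It had 22.7, 18.3, 21.4 and 23.0 CPM at 3 h, 18.4, 23.2, 20.0 and 22.0 CPM at 24 h, and 22.5, 20.9, 21.9 and 52.8 CPM at 72 h. All treated mice were above the 3 control mice of hashtags 1 to 3, but only 1 treated mouse, at 72 h, was above the control mouse of hashtag 4. Egr1 rose at 3 h (log2 fold change 0.75, SE 0.283, adjusted p = 0.0392), at 24 h (0.73, SE 0.240, adjusted p = 0.0260) and at 72 h (1.21, SE 0.245, adjusted p = 0.000549). HSC-like cells had the highest Egr1 level of the 5 classes. Their share was 9.98% in control and 19.3, 13.1 and 17.0% at 3, 24 and 72 h. Mean Egr1 in HSC-like cells was 48.4 CPM in control and 73.2, 76.1 and 92.4 CPM at 3, 24 and 72 h. None of these rises passed in edgeR's quasi-likelihood test. The control mean covers 3 mice without hashtag 4, whereas each treated mean covers 4 mice with it. In HSC-like cells Egr1 was 1.06 (SE 0.166) higher on the log2 scale in hashtag 4 than in hashtag 1. With class shares held at those of control, the values of Egr1 over the whole compartment were -0.15, 0.18 and 0.31 and none passed. That setting also used limma, with equal weight per mouse, over cells of the 5 classes alone, so class shares were not the only change. In limma with equal weight of cells and class shares as observed, Egr1 was at 0.15 at 3 h and 0.21 at 24 h. The 3 h call was lost without 3 h mouse 1, 3 or 4 or control mouse 1 or 2 (adjusted p = 0.0800 to 0.124), and the 24 h call without 24 h mouse 2 or 4 or control mouse 1 or 2 (0.0503 to 0.112), whereas the 72 h call held without any 1 mouse. The likelihood ratio test and DESeq2 did not call Egr1 at 3 h (adjusted p = 0.0931 and 0.296) or at 24 h (0.124 and 0.379), and neither did library size alone at 3 h (0.0763). With equal weight of cells Egr1 passed at no time (0.680, 0.674 and 0.159).

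Ier2 ranged from 107 to 185 CPM in control mice, and at 3 h it ranged from 101 to 130, at 24 h from 123 to 136 and at 72 h from 113 to 213 CPM. Ier2 did not pass over the whole compartment in edgeR's quasi-likelihood test without a hashtag term. Its 3 h difference did pass in limma with class shares held at those of control.

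Btg2, the antiproliferative early gene, had 21.3, 32.4, 41.8 and 49.6 CPM in control and 9.84, 15.7, 15.9 and 23.6 CPM at 3 h. At 3 h 3 of 4 mice were below all controls, and the mouse of hashtag 4 lay just above the lowest control. Btg2 fell at 3 h (log2 fold change -1.002, SE 0.281, adjusted p = 0.00691). It was at 26.9, 27.5, 27.3 and 32.2 CPM at 24 h and 29.6, 21.9, 32.8 and 56.6 CPM at 72 h, inside or above the control range. Zfp36, which speeds mRNA decay, ranged from 23.8 to 63.5 CPM in control mice. At 3 h it ranged from 22.7 to 35.6, at 24 h from 29.0 to 36.2 and at 72 h from 25.6 to 64.4 CPM. No change of Zfp36 passed in edgeR's quasi-likelihood test without a hashtag term. Its 3 h difference did pass in limma with class shares held at those of control.

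The members were not expressed alike across the compartment. In control, Fos was at 110 ± 52.8 CPM (SD, n = 3) in HSC-like, 113 ± 90.1 (n = 4) in LMPP-like, 75.0 ± 70.4 (n = 4) in myeloid progenitor-like, 44.7 ± 36.3 (n = 3) in MK progenitor-like and 12.5 ± 8.47 (n = 3) in erythroid progenitor-like cells. The 3 erythroid values (7.22 to 22.2 CPM) were below all values of HSC-like cells (59.2 to 164), LMPP-like cells (34.8 to 239) and myeloid cells (24.2 to 178), whereas these 3 classes overlapped one another. The erythroid values overlapped those of MK progenitor-like cells (11.2 to 83.3 CPM). The 4 mice of LMPP-like and of myeloid progenitor-like cells include control mouse 4, with 12 and 16 cells. Levels were not tested between classes. In cells reduced to 5000 UMIs, Fos was detected in 32.8% of HSC-like, 26.6% of LMPP-like, 19.7% of MK, 18.4% of myeloid and 7.11% of erythroid progenitor-like control cells. Egr1 was at 38.1 to 61.4 CPM in HSC-like control cells, above its range in the other 4 classes (2.10 to 41.6 CPM) except that the highest LMPP-like value, from control mouse 4, overlapped.

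The genes whose level over the 20 class and time point means was most like that of Fos were Macf1 (Pearson r = 0.97), Cyfip2 (0.96), Eif4g3 (0.95), Lrif1 (0.95) and Fchsd2 (0.95), among 7683 genes tested in all classes. These points share libraries, so r is a description. Atf3 was too low for such a comparison.

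**Figure D2:**
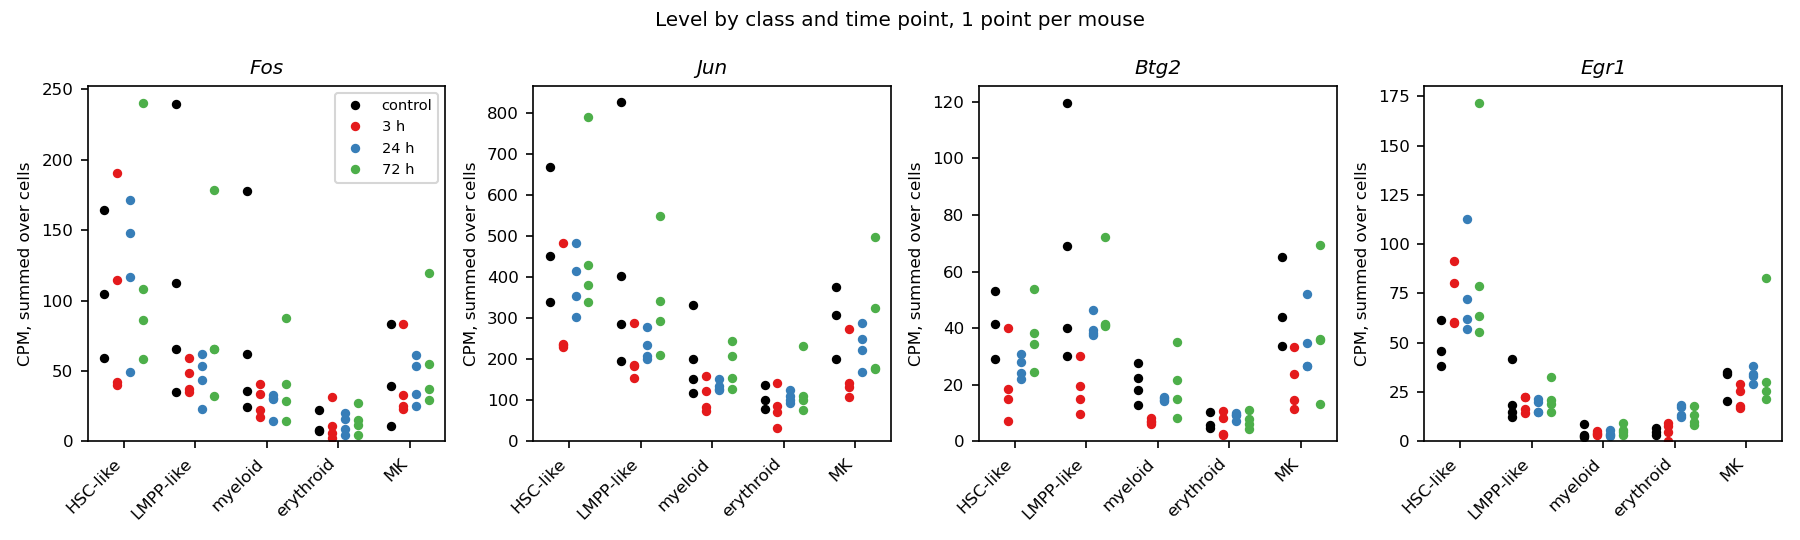
Level of Fos, Jun, Btg2 and Egr1 in CPM, summed over the cells of a mouse and class (y axis), in the 5 classes (x axis), with 1 point per mouse coloured by time point. In control, the mean of Fos is lowest in erythroid progenitor-like cells (7.22 to 22.2 CPM), whose range overlaps that of MK progenitor-like cells (11.2 to 83.3 CPM). The control mean of Egr1 is highest in HSC-like cells (38.1 to 61.4 CPM).

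In HSC-like cells (8961 genes and 9 members tested), Jun and Btg2 fell at 3 h, 2 of 9 lower and 0 higher, against 3.76% of all genes lower and 9.81% higher. Jun was at 340, 452 and 670 CPM in the 3 control mice and at 234, 230, 237 and 484 CPM at 3 h, so 3 of 4 mice were below all controls (log2 fold change -0.76, SE 0.229, adjusted p = 0.0207). Btg2 was at 29.2, 41.3 and 53.2 CPM in control and 7.10, 14.98, 18.6 and 39.96 CPM at 3 h (-1.03, SE 0.309, adjusted p = 0.0189). In both genes the mouse inside the control range carried hashtag 4. No member passed in HSC-like cells at 24 h (2.19% of all genes higher and 0.725% lower) or at 72 h (2.01 and 1.04%) in edgeR's quasi-likelihood test, where 3 and 2 members had an unadjusted p under 0.05. DESeq2 called 0 at both times, and the likelihood ratio test called 0 at 24 h and 1 at 72 h. In the quasi-likelihood test Egr1 came near at 72 h (0.94, SE 0.277, adjusted p = 0.0526), with 3 of 4 mice above the 3 controls. The hashtag 4 control is missing here, and Egr1 was 1.06 (SE 0.166) higher in hashtag 4 than in hashtag 1 in this class. The 3 h call of Jun was lost without 3 h mouse 1, 2 or 3 or control mouse 3 (adjusted p = 0.0699 to 0.294), and that of Btg2 without the same mice (0.0615 to 0.153). DESeq2 did not call Jun (0.251).

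LMPP-like cells (10102 genes, 9 members) had 3 members lower and 0 higher at 3 h, against 7.81% of genes lower and 12.3% higher. Control mouse 4 counts as 1 of 4 controls here with 12 cells. Btg2 fell most clearly, from 30.3, 40.04, 69.2 and 120 CPM in control to 15.02, 19.5, 9.82 and 30.04 CPM at 3 h, with all 4 mice below all controls (log2 fold change -1.503, SE 0.303, adjusted p = 0.000329). Fosb was at 25.1, 54.8, 102 and 161 CPM in control and 15.02, 19.5, 22.0 and 34.1 CPM at 3 h (-1.51, SE 0.398, adjusted p = 0.00556). Jun fell with a value of -0.72 (SE 0.255, adjusted p = 0.0440), and this call was lost without control mouse 3 or 4, 3 h mouse 1, 2 or 3 or 72 h mouse 3 (adjusted p = 0.0510 to 0.194) and in DESeq2 (0.0596). At 24 h Fosb remained lower (-1.45, SE 0.306, adjusted p = 0.00168; background 4.52% higher and 2.34% lower), and at 72 h Junb was higher (0.41, SE 0.126, adjusted p = 0.0474) with no mouse above the highest control (4.18 and 2.35%). The Fosb calls were lost without control mouse 3 (-1.01, adjusted p = 0.0894 at 3 h, and -0.95, 0.108 at 24 h), and the Junb call in 9 of 16 such fits, with the highest p without 72 h mouse 4 (0.27, adjusted p = 0.229). The likelihood ratio test (0.0603), DESeq2 (0.513) and library size alone (0.0807) did not call Junb either.

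Myeloid progenitor-like cells (9709 genes, 9 members) had 2 members lower and 0 higher at 3 h (background 10.6% lower and 13.8% higher). Btg2 was at 13.03, 18.04, 22.2 and 27.9 CPM in control and at 6.72, 7.20, 8.28 and 6.06 CPM at 3 h, with no overlap (log2 fold change -1.33, SE 0.324, adjusted p = 0.00220). Fosb fell at 3 h (-1.19, SE 0.442, adjusted p = 0.0466) and 24 h (-1.09, SE 0.312, adjusted p = 0.0139; background 9.02% higher and 6.77% lower). Control mouse 4 held the highest control value of Fosb (118 CPM, against 14.4 to 41.9 in the other controls). Both Fosb calls were lost without control mouse 3 (-0.82, adjusted p = 0.216, and -0.72, 0.180), and that at 3 h also without 3 h mouse 1, 2 or 3 or 72 h mouse 2, 3 or 4 (0.0509 to 0.180) and with only the groups compared (0.0519). At 72 h Egr1 (1.09, SE 0.306, adjusted p = 0.0128) and Ier2 (0.23, SE 0.0776, adjusted p = 0.0367) were higher (8.06 and 7.31%), Egr1 from levels of 2.10 to 8.57 CPM in control to 3.26 to 9.24 CPM. The plain means of Egr1 over mice were 4.08 and 5.80 CPM, on 69 and 64 UMIs. The fit gives more weight to mice with more UMIs. Both 72 h calls were lost without 72 h mouse 4 (0.84, adjusted p = 0.0906, and 0.13, 0.200) or control mouse 1 (0.0632 and 0.156), and Ier2 also without 72 h mouse 2 (0.0644) or control mouse 2 (0.0850). DESeq2 called neither (0.0791 and 0.0743), and library size alone did not call Ier2 (0.0942).

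In erythroid progenitor-like cells (8469 genes, 8 members) 0 of 8 members passed at 3 h in edgeR or DESeq2, with 0 at an unadjusted p under 0.05 (9.26% of genes higher and 3.92% lower), and 3 were higher at 24 h (5.9 and 4.12%). Egr1 was at 3.42, 6.61 and 4.72 CPM in control and 12.4, 18.6, 17.4 and 13.5 CPM at 24 h (log2 fold change 1.67, SE 0.291, adjusted p = 0.000195). Junb was at 27.4, 35.2 and 34.0 CPM in control and 69.6, 62.4, 49.4 and 59.2 CPM at 24 h (0.90, SE 0.151, adjusted p = 0.000128). For Ier2 the values were 52.4 to 62.3 CPM and 72.1 to 90.2 CPM (0.52, SE 0.131, adjusted p = 0.00906). In all 3 genes the 4 mice at 24 h were above the 3 controls, and the hashtag 4 control is missing from this class. Egr1 (1.30, SE 0.332, adjusted p = 0.0168) and Junb (0.63, SE 0.167, adjusted p = 0.0216) were also higher at 72 h (3.29 and 1.85%). The 3 calls at 24 h held without any 1 mouse, whereas both at 72 h were lost without 72 h mouse 4, control mouse 1 or control mouse 3 (adjusted p = 0.0602 to 0.135), Junb also without 72 h mouse 1 (0.0819) and Egr1 without 72 h mouse 2 (0.0549).

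MK progenitor-like cells (8947 genes, 9 members) had 1 member lower at 3 h, Jund (log2 fold change -0.62, SE 0.195, adjusted p = 0.0315; background 9% higher and 2.49% lower), from 245, 312 and 361 CPM to 150, 194, 177 and 263 CPM. The call was lost without 3 h mouse 1, 2 or 3 or control mouse 2 or 3 (adjusted p = 0.0736 to 0.170) and in DESeq2 (0.155). Btg2 did not pass in edgeR's quasi-likelihood test at 3 h (-1.14, SE 0.394, adjusted p = 0.0559), although all 4 mice were below the 3 controls. Fosb did not pass either (-1.08, SE 0.389, adjusted p = 0.0708). In edgeR's quasi-likelihood test 0 members passed at 24 h (2.94 and 0.905%) and 72 h (3 and 1.24%), with 1 and 0 at an unadjusted p under 0.05 and 0 in DESeq2 at both times. Summed over classes, the main test called 8 member and class pairs at 3 h and 5 each at 24 and 72 h, and these counts moved with the setting, from 5 to 26, 3 to 20 and 1 to 11. They are given without the share of all genes called under each setting, and describe the members only.

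**Figure D3:**
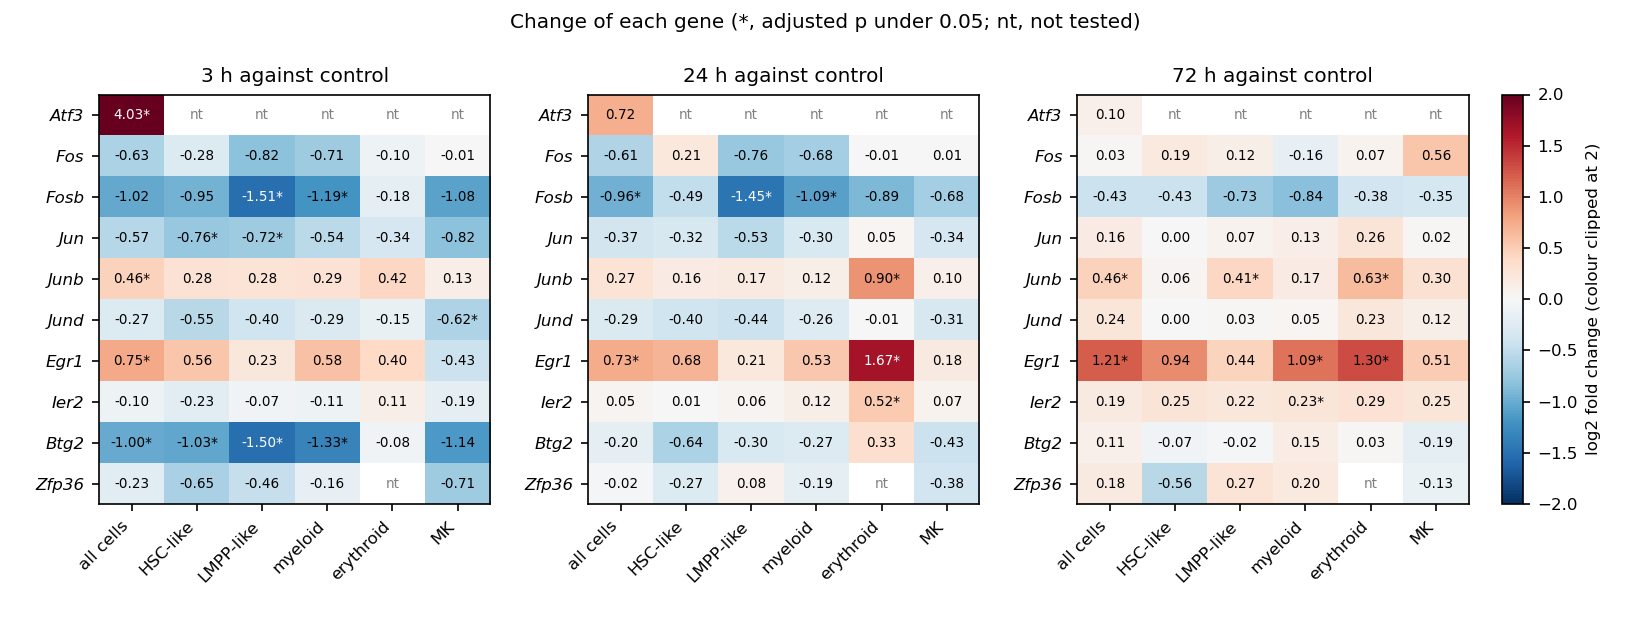
Log2 fold change of each gene against control (colour and number) at 3, 24 and 72 h (panels) in all cells and the 5 classes (columns), with stars for an adjusted p under 0.05 and nt for genes below the count filter. At 3 h Fosb and Btg2 are blue in all cells and in HSC-like, LMPP-like, myeloid and MK cells. The values of Btg2 there are -1.002, -1.03, -1.503, -1.33 and -1.14, not all with a star. In erythroid cells Fosb is at -0.18 and Btg2 at -0.08. Egr1 and Junb are red in erythroid cells at 24 h (1.67 and 0.90).

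Whether a class differed from HSC-like cells in its change was tested directly, with class by time terms and the mouse as a block, over 10883 genes and 9 members. Of 108 such differences 1 passed: Zfp36 in LMPP-like minus HSC-like cells at 72 h (0.94, SE 0.207, adjusted p = 0.0404). Zfp36 was at 81.0, 114 and 157 CPM in HSC-like control cells and 53.9, 60.3, 67.4 and 137 CPM at 72 h, whereas in LMPP-like cells it was at 38.5, 44.1, 55.3 and 130 CPM and then 52.1, 43.8, 53.8 and 85.8 CPM. In the LMPP-like minus HSC-like differences, 0.175, 0.0184 and 0.0643% of genes passed at 3, 24 and 72 h. The shares were 2.43, 0.836 and 0.11% for myeloid, 1.75, 1.79 and 0.0827% for erythroid and 0.0459, 0.00919 and 0% for MK progenitor-like cells. At 3 and 24 h 0 of 36 differences passed in edgeR's quasi-likelihood test at each time, with 1 and 10 at an unadjusted p under 0.05 and 0 and 1 in the likelihood ratio test, and the erythroid value of Junb at 24 h came near (0.69, adjusted p = 0.0616). The Zfp36 difference at 72 h was lost without 3 h mouse 2 or 4, 72 h mouse 2 or 3, or control mouse 1, 2 or 3.

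Several members differed between mice by hashtag number. The same 4 hashtag numbers were used in all 4 libraries, and a test of the hashtag number with the time point as a term, added after the values had been seen, called 10 of 12042 genes (0.083%). Of these, 3 were members: Fos, Jun and Fosb. Fos was lowest in the hashtag 1 mouse of 4 of 4 libraries and highest in the hashtag 4 mouse of 3 of 4, with a ratio of hashtag 4 to hashtag 1 of 6.76 in the control library and of 2.63, 2.20 and 5.38 at 3, 24 and 72 h.

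The difference of hashtag 4 minus hashtag 1 was 1.97 (SE 0.230, adjusted p = 0.00246) on the log2 scale for Fos, 1.59 (SE 0.227, adjusted p = 0.0123) for Fosb and 0.93 (SE 0.126, adjusted p = 0.00246) for Jun. For Jund (0.80, adjusted p = 0.0517) and Zfp36 (0.90, adjusted p = 0.0806) it did not pass, although Zfp36 was lowest in hashtag 1 and highest in hashtag 4 in all 4 libraries. The values were 0.84 for Btg2, 0.73 for Egr1, 0.46 for Ier2, 0.36 (SE 0.122) for Junb and 0.19 (SE 0.541) for Atf3, with adjusted p between 0.228 and 0.931. Atf3 was lowest in hashtag 1 in 1 library and highest in hashtag 4 in 1 library.

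These differences were present in each class. Fos differed by 1.94 (SE 0.227) in HSC-like, 1.97 (SE 0.192) in LMPP-like, 1.86 (SE 0.260) in myeloid, 2.08 (SE 0.342) in erythroid and 1.88 (SE 0.271) in MK progenitor-like cells. Fos, Fosb and Jun passed in all 5 classes. In HSC-like cells 7 of 9 members passed, all except Junb and Btg2, against 0.201% of all genes. The counts were 3 of 9 in LMPP-like (0.119%), 5 of 9 in myeloid (0.113%), 4 of 8 in erythroid (0.886%) and 6 of 9 in MK progenitor-like cells (0.179%).

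Leaving out any 1 mouse left Fos and Jun past the threshold, and Fosb was lost without 72 h mouse 1 (adjusted p = 0.134), 72 h mouse 4 (0.0515) or control mouse 1 (0.14). Without control mouse 4, Fos differed by 1.83 (adjusted p = 0.00859), Fosb by 1.48 and Jun by 0.87. Median depth in hashtag 1 and hashtag 4 mice was 18706 and 15818.5 UMIs in control and 12238 and 13247.5 at 3 h. It was 19051 and 20231 UMIs at 24 h and 13990 and 15281 at 72 h. Median mitochondrial content was 1.63 and 1.67% in control and 1.61 and 1.48% at 3 h. It was 1.69 and 1.70% at 24 h and 1.75 and 1.66% at 72 h. Whether depth or mitochondrial content relates to the hashtag difference was not tested. The order of staining, sorting or loading is not given in the sources used here, and the cause of the difference was not tested.

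**Figure D4:**
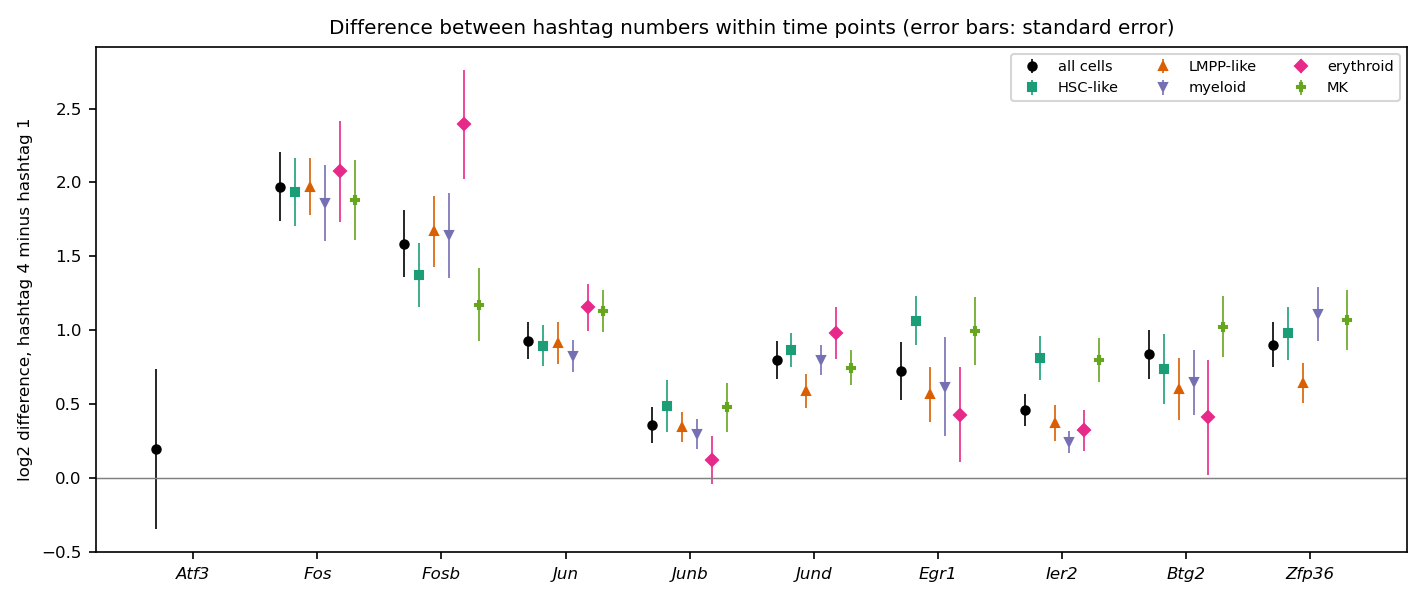
Log2 difference of hashtag 4 minus hashtag 1 within time points (y axis) for each gene (x axis), in all cells and the 5 classes (symbols), with bars for the standard error. Fos lies between 1.86 and 2.08 in all classes, whereas in all cells Junb (0.36, SE 0.122) and Atf3 (0.19, SE 0.541) have the smallest values and did not pass.

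The 7 other genes that differed between hashtag numbers were Klf2, Hspa1a, Dusp1, Cd69, Neat1, Jchain and Gm26802, named after their values were seen. Jchain, the joining chain of plasma cell antibodies, had the smallest p (adjusted p = 6.66e-09) and was lower in hashtag 4 than in hashtag 1 (-5.07). It stood at 147, 112, 1.12 and 0.869 CPM in control mice of hashtags 1 to 4 and at 0 to 2.02 CPM in all treated mice, so the high values were those of control mice 1 and 2. Cd69 (1.04), Neat1 (0.56) and Gm26802 (4.27) were higher in hashtag 4. Klf2 (2.15, adjusted p = 0.00246), a Krüppel-like early gene, and Dusp1 (1.16, adjusted p = 0.0136), a phosphatase that ends MAP kinase signaling, belong to a list of 36 other immediate-early genes, of which these 2 passed. Hspa1a (4.24, adjusted p = 0.00246), the inducible HSP70, was the 1 of 15 heat shock genes that passed. It stood at 6.16, 25.7, 40.7 and 59.1 CPM in control mice of hashtags 1 to 4, at 0.656 to 2.97 CPM at 3 h, at 0.220, 0.147, 2.35 and 12.4 CPM at 24 h, and at 0.369, 0.336, 11.4 and 15.2 CPM at 72 h. Of the 20 interferon-stimulated reference genes 0 passed in edgeR's hashtag test (2 at an unadjusted p under 0.05), with a median difference of 0.06. The lists of AP-1 and ATF relatives, integrated stress response, p53 targets and upstream signaling, named further below, also had 0 called, with 1, 4, 2 and 0 at an unadjusted p under 0.05.

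**Figure D5:**
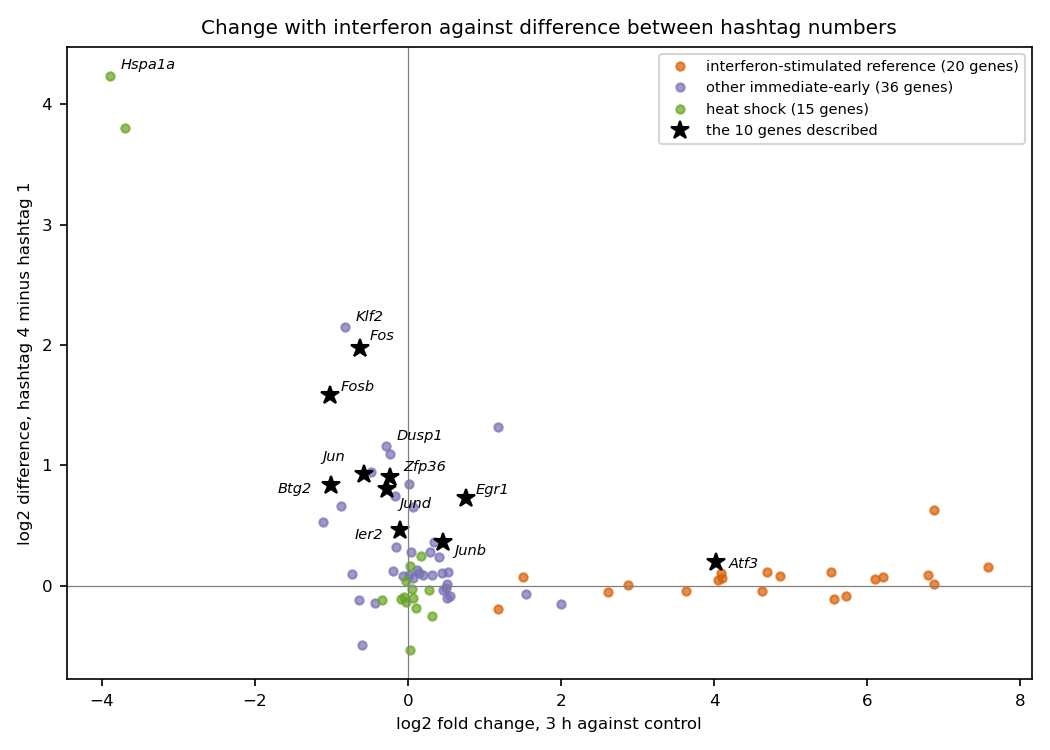
Log2 fold change at 3 h against control (x axis) and log2 difference of hashtag 4 minus hashtag 1 (y axis) for the 10 genes (stars) and 3 lists (points). Atf3 lies with the interferon-stimulated genes on the right (4.03 on the x axis and 0.19, SE 0.541, on the y axis), whereas Fos (-0.63 and 1.97) and Fosb (-1.02 and 1.59) lie high on the left together with Klf2.

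Fos and 8 other members also moved together from mouse to mouse. Within time points, the deviation of Fos from its group mean followed that of Fosb over 16 mice with r = 0.96 and rho = 0.98 (permutation test, adjusted p = 0.00021 over 9 relations for both). For Zfp36 r was 0.95, for Jund 0.93, for Jun 0.87, for Btg2 0.83, for Egr1 0.81, for Ier2 0.80 and for Junb 0.79, with rho from 0.64 to 0.93 and adjusted permutation p from 0.00021 to 0.0109 for r. Atf3 had r = -0.08 and rho = -0.15 (permutation test, adjusted p = 0.795 and 0.620), but it rested on 0 to 6 UMIs per mouse outside 3 h, so its relation to Fos could not be resolved at this depth. Without the 2 mice farthest from the median of Fos, 72 h mouse 4 and control mouse 4, r was 0.96 for Fosb, 0.91 for Zfp36, 0.86 for Jund, 0.74 for Jun, 0.72 for Btg2, 0.58 for Egr1, 0.55 for Ier2, 0.53 for Junb and -0.05 for Atf3. With the mean of each hashtag number also removed, r was 0.93 for Fosb, 0.83 for Junb and Zfp36, 0.78 for Jund, 0.74 for Egr1, 0.69 for Ier2, 0.62 for Jun and 0.38 for Btg2.

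Between the cells of a mouse, reduced to 5000 UMIs, Fos correlated with Fosb with a median r of 0.23 over 16 mice (0.12 to 0.31), and with Jund (0.18), Jun (0.18) and Zfp36 (0.17), as a description of sparse counts. The share of cells with a Fos UMI at that depth was 23.9% in control and 14.9, 17.5 and 22.0% at 3, 24 and 72 h (46.4, 29.3, 37.8 and 39.5% before reduction), and in control mice it ran from 12.5% in hashtag 1 to 52.6% in hashtag 4, the latter from 57 cells. Jun was detected in 60.4, 50.1, 55.2 and 63.2% of reduced cells, Egr1 in 7.71, 10.2, 10.7 and 14.5% and Btg2 in 17.5, 8.88, 14.6 and 16.2%.

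Of 17 tested relatives of the members in the AP-1 and ATF family, 3 were higher and 1 lower at 3 h, against 19.7 and 19.2% of all genes. The counts were 3 and 2 at 24 h (all genes 14.5 and 13.8%), and 4 and 2 at 72 h (18.9 and 18.5%). Batf2, a basic leucine zipper gene of the interferon response, rose by far most, from 0.735 ± 0.660 CPM (SD, n = 4) to 8.24 ± 1.81 CPM (n = 4) at 3 h (log2 fold change 3.09, adjusted p = 1.63e-08), and was still higher at 24 h (1.28) and 72 h (0.98). Ddit3 (CHOP) rose by 0.30, 0.37 and 0.34 at the 3 times. The small Maf gene Maff rose by 0.71 at 24 h and 1.34 at 72 h, and Mafk rose by 0.43 at 3 h. Fosl2, the Fos relative Fra-2, fell by 0.74 at 24 h and 0.59 at 72 h, Batf3 fell by 2.04 at 24 h, Mafg fell by 0.26 at 3 h and Jdp2 fell by 0.47 at 72 h, all on the log2 scale.

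Of the 36 other immediate-early genes, 12 were higher and 5 lower at 3 h (all genes 19.7 and 19.2%), 8 and 5 at 24 h (14.5 and 13.8%), and 13 and 3 at 72 h (18.9 and 18.5%), with medians of 0.07, 0.08 and 0.30. Socs3 (2.01, adjusted p = 2.19e-06), an inhibitor of JAK-STAT signaling, Gadd45g (1.54, adjusted p = 9.78e-09) and Klf10 (0.56) rose most at 3 h. Klf4 (-1.11), Rhob (-0.88) and Gadd45a (-0.73) fell most. Gadd45g (0.65), Ier3 (0.49) and Csrnp1 (0.39) led at 24 h, with Klf4 (-1.52), Rhob (-0.72) and Gadd45b (-0.59) lowest, and Nr4a1 (1.65), Socs3 (0.96) and Klf10 (0.67) led at 72 h, with Klf4 (-1.48), Gadd45b (-0.71) and Cebpb (-0.71) lowest. Klf4, a factor of monocyte differentiation, was therefore lower at all 3 times in the sums over all cells. Myeloid progenitor-like cells made up 29.5% of cells in control and 15.5, 19.8 and 15.4% at 3, 24 and 72 h. Values with class shares held are not given for the genes of any list. Changes of level and of class shares are therefore not told apart in these sums.

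Heat shock genes gave 2 higher and 3 lower of 15 at 3 h (all genes 19.7 and 19.2%), 2 and 6 at 24 h (14.5 and 13.8%), and 1 and 5 at 72 h (18.9 and 18.5%). Hspa1a (-3.89 at 3 h, adjusted p = 0.0101) and its neighbour Hspa1b (-3.70) fell most, and near-identical sequence may split reads between them. The levels of Hspa1a by mouse are given above. Hspe1 (0.27) and Dnaja1 (0.31) rose and Hspa4l (-0.34) fell at 3 h, Dnajb4 (0.25) and Hsp90ab1 (0.08) rose and Hspa5 (-0.47) fell at 24 h, and Dnajb4 (0.39) rose and Hspa5 (-0.33) fell at 72 h.

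Of 11 genes of the integrated stress response tested, 2 were higher and 2 lower at 3 h (all genes 19.7 and 19.2%), 2 and 0 at 24 h (14.5 and 13.8%), and 1 and 0 at 72 h (18.9 and 18.5%). Nupr1, a stress-induced chromatin protein, rose from 4.44 ± 1.88 to 16.8 ± 3.75 CPM at 3 h (log2 fold change 2.07, adjusted p = 1.38e-06) and stayed higher (1.42 and 0.91). Vldlr rose (0.64) and Asns (-0.57) and Ddit4 (-0.68) fell at 3 h, and Trib3 rose at 24 h (1.34). Of 11 p53 targets, against the same shares of all genes, 2 were higher and 2 lower at 3 h and 24 h, and 2 and 1 at 72 h. The cell cycle inhibitor Cdkn1a rose (0.81, adjusted p = 3.75e-05) with Aen (0.41) at 3 h, while Mdm2 (-0.25) and Bax (-0.16) fell.

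Upstream of the members, 3 of 14 kinases and SRF-related factors were higher and 4 lower at 3 h (all genes 19.7 and 19.2%), 1 and 4 at 24 h (14.5 and 13.8%), and 1 and 6 at 72 h (18.9 and 18.5%). Map2k1 (MEK1) rose at 3 h, from 24.5 ± 0.914 to 47.5 ± 2.46 CPM (log2 fold change 0.95, adjusted p = 1.17e-11), with Rps6ka3 (0.22) and Elk3 (0.21) also higher. Rps6ka1 (-0.51), Mapk3 (-0.45) and Srf (-0.45) fell most at 3 h. Srf, which binds the CArG box of many immediate-early promoters, stayed lower at 24 h (-0.30) and 72 h (-0.26).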

How the data were processed

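Per the labels and the study's methods, the authors aligned reads to mm10 with Cell Ranger 3.1.0 and deposited UMI counts per gene and barcode, without normalization, and calls of each barcode as a hashtag, multiplet or negative, made with Seurat; the annotation version is not given in the sources used here. The deposited hashtag scores were not used. Barcodes with 1 hashtag, at most 5% mitochondrial UMIs and at least 700 genes were kept, and their number per time point equals that in the methods. Doublets within a mouse carry 1 hashtag and remain.

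Control cells were clustered (resolution 0.8) without the members and lists, and classes were transferred with a mutual nearest neighbor correction. UMI counts were summed per mouse, or per mouse and class with at least 10 cells, and tested with edgeR 4.0.16 (filterByExpr, TMM, quasi-likelihood, R 4.3.3) over 16 mice. DESeq2 1.42.0 and limma 3.58.1 served as alternatives. The tests were checked on simulated counts. Lists and members were chosen with earlier results of these data known. All members were named, and of each list up to 3 genes with the largest rise and fall among those passing. Hashtag numbers did not pair mice over all genes (24 same-number pairs, r from -0.06 to 0.09).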

Additional observations from a re-analysis of the deposited data

Results flagged for a closer look

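Of 40 groups of 4 mice (10 genes at 4 time points), 4 held a mouse whose gap to the nearest other exceeded Dixon's limit, and chance flags about 1 group in 20. Egr1 at 72 h reached 52.8 CPM in the mouse of hashtag 4, against 20.9 to 22.5 in the others. In the same mouse Ier2 was at 213 CPM, against 113 to 130 in the others. Btg2 at 24 h was at 32.2 CPM in the hashtag 4 mouse, against 26.9 to 27.5. Atf3 was at 0 in the control mouse of hashtag 4, whose 1102706 UMIs allow up to 3 counts when 0 are seen, against 0.104 to 0.114 CPM in the other controls. The change at 72 h differed between LMPP-like and HSC-like cells for Zfp36, by 0.94 on the log2 scale (edgeR, adjusted p = 0.0404).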

How the results depend on the processing

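The calls of Atf3 and Btg2 at 3 h over the whole compartment kept direction and significance without any 1 mouse. Of 291 values of single genes under settings other than leaving out a mouse, 222 kept direction and side of the threshold, 46 lost the threshold, 16 passed it and 7 changed sign. The 4 members called at 3 h over the whole compartment became 5 in the likelihood ratio test, 3 in DESeq2, 7 with class shares held at those of control and 2 with a log2 fold limit of 1. The 7 with class shares held were Atf3, Fosb, Jun, Jund, Ier2, Btg2 and Zfp36. The 2 called at 24 h became 1 in the likelihood ratio test and 0 in DESeq2, with class shares held, with equal weight of cells and with the fold limit. The 2 called at 72 h became 1 in DESeq2, 0 with class shares held, 0 with equal weight of cells and 1 with the fold limit. Summed over classes, the 8 calls at 3 h became 17 (likelihood ratio), 5 (DESeq2), 18 (library size alone), 26 (no filter on low counts), 17 (only the groups compared) and 5 (fold limit), the 5 at 24 h became 9 (likelihood ratio), 19 (no filter), 8 (only the groups compared) and 3 (fold limit), and the 5 at 72 h became 1 (DESeq2), 3 (library size alone), 11 (no filter) and 2 (fold limit). These counts are given without the share of all genes called under each setting. They do not show whether the members moved more than other genes. Without the filter on low counts, genes below it such as Atf3 were also tested, so those sums cover more members. Class differences called by the likelihood ratio test were 1 at 24 h and 2 at 72 h, and hashtag differences 7, with 41 called over all genes in that hashtag test. Fos at 72 h (0.03) changed sign in the likelihood ratio test (-0.40), DESeq2 (-0.41), with class shares held (-0.45) and with equal weight of cells (-0.39), and without 1 mouse it ran from -0.64 to 0.31, with -0.33 without control mouse 1 and -0.14 without control mouse 2. At 3 h Junb (-0.0025) and Egr1 (-0.15) changed sign with class shares held. The cause of these changes was not tested.

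Without 1 mouse, the counts ran from 2 to 6, 0 to 3 and 1 to 2 over the whole compartment at 3, 24 and 72 h, from 3 to 17, 3 to 10 and 2 to 6 summed over classes, from 0 to 0, 0 to 2 and 0 to 1 for class differences, and from 2 to 7 for hashtag numbers. In these hashtag fits the calls over all genes ran from 6 to 21.

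With the hashtag number as a replicate block, the calls at 3, 24 and 72 h numbered 7, 4 and 3 over the whole compartment, and 22, 20 and 7 summed over classes. Except for hashtag numbers, counts here and under the other settings are given without the share of all genes called, and describe the members only. Fos (-0.85, adjusted p = 0.00884), Fosb (-1.18, 0.000507) and Jun (-0.64, 0.000547) passed at 3 h and Fos at 24 h (-0.76, 0.00998), Fos at 72 h was -0.26, and no call of the whole compartment was lost. The whole-compartment counts at 24 and 72 h each include a further member that is not named here. Ier2 in myeloid progenitor-like cells at 72 h no longer passed (0.19, adjusted p = 0.0543). The numbers did not pair mice over all genes, with a median correlation of same-number mice of 0.01 against -0.01 for different numbers. This correlation covers all genes, whereas Fos, Fosb and Jun did differ between hashtag numbers as given above.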

Other observations

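The related lists were also counted in each class. Of the other immediate-early genes, 3, 5 and 2 of 20 tested were higher at 3, 24 and 72 h in erythroid progenitor-like cells and 0 were lower at each time by edgeR's quasi-likelihood test, with median log2 fold changes of 0.33, 0.43 and 0.32. In HSC-like cells 4 of 29 were higher and 1 lower at 3 h, and in LMPP-like cells 6 of 32 were higher and 3 lower. Heat shock genes in LMPP-like cells had 5 of 15 higher and 3 lower at 3 h, and in myeloid progenitor-like cells 2 were higher and 3 lower. Integrated stress response genes in LMPP-like cells had 3 of 8 higher and 0 lower at 24 h. The share of all genes called in these classes is given with the members, and whether a list differed between classes was not tested.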
